A study of Mus musculus with 6 samples.

Results

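Gata2, Gata3, Tal1 and Lmo2 encode transcription regulators that were read together in mouse P19 cells with and without the intracellular domain of the amyloid precursor protein (AICD). They were chosen by measured values of these arrays: Gata2 had a higher signal in the AICD line in every state, and the other 3 were taken as its known partners in blood and in V2b interneurons of the spinal cord. The differences between the lines are therefore given as a description, with no test. Probes were found by the symbol of their RefSeq accession: 4 of 41174 probes belong to 3 of the 4 genes, among 17178 genes with a probe. Gata2 has 2 probes, Gata3 and Lmo2 have 1 each, and no probe matched Tal1, which is not analysed here.

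GATA factors are zinc-finger proteins that bind the DNA letters GATA, and Gata2 keeps blood stem and progenitor cells going while Gata3 directs T cells. Tal1 (also called SCL) is a basic helix-loop-helix protein that binds E-boxes with an E protein, and Lmo2 is a LIM-domain adaptor that binds no DNA itself and holds Tal1, a GATA factor and Ldb1 together. In the nervous system, Gata2, Gata3 and Tal1 set the fate of inhibitory V2b interneurons beside the excitatory V2a interneurons, and Gata2 and Tal2 do the same for GABA neurons of the midbrain. Gata2 and Gata3 also act in trophoblast and in ectoderm.

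P19 cells derive from a mouse embryonal carcinoma, and retinoic acid given to aggregates turns them into neurons and glia. The vector group is P19 cells that carry the empty pCDNA plasmid, and the AICD group is P19 cells that express AICD. Each line was sampled undifferentiated, aggregated (after 4 days with all-trans retinoic acid at 5e-07 M) and differentiated (2 days after the aggregates were replated), with 1 array for each line and state, 6 in all. The promoter behind AICD, and whether a line is a clone or a pool, are not given in the sources used here.

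All 4 probes were well above background on all 6 arrays, and between 62.0% and 65.9% of the spots of an array were. The 2 undifferentiated arrays lay on 1 slide and scan and the other 4 on a second, so the aggregation step and the slide cannot be told apart. Spots of the same probe varied with an SD of 0.0697 to 0.0837 in log2 units. In sum, marker genes followed the labels, with an exception in the AICD line. The summed signal of 6 embryonal carcinoma genes (Pou5f1, Sox2, Lin28a, Utf1, Tdgf1 and Dppa4), in units of the array's 75th percentile, was 129 and 119 on the undifferentiated vector and AICD arrays. It was 10.9 and 17.1 on the aggregated and 4.68 and 17.2 on the differentiated arrays. Pou5f1, a pluripotency factor, stood at -2.40 and -0.64 on the aggregated and differentiated vector arrays but at 3.19 and 3.25 on the AICD arrays, a line difference of 5.59 and 3.88, and Lin28a had a difference of 3.08 in the differentiated state. The part of these embryonal carcinoma genes in the Gata2 and Gata3 differences was not tested. The summed signal of 8 neuron genes ran from 12.6 and 13.4 to 48.6 and 75.2 and then to 186 and 140. In these bulk samples, fewer cells of a type and less RNA per cell cannot be told apart.

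The 250 bases before the annotated starts of Gata2 and Gata3 are shown because both genes had higher signals in the AICD line in every state. They are RefSeq promoter windows of GRCm38.p6, printed 5′ to 3′ on the strand of the gene, with CG dinucleotides in capitals. Gata2 (chr6:88193891-88207032) has 2 annotated starts. The other window belongs to an annotated start of Gata3 that lies within the span of the gene (chr2:9857078-9887953, minus strand).
Gata2, distal start, chr6:88193641-88193890, plus strand: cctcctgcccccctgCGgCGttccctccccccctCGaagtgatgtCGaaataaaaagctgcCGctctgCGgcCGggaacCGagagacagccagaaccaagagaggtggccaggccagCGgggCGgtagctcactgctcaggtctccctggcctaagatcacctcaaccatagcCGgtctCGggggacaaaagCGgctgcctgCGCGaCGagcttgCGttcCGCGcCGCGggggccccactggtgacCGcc
Gata2, proximal start, chr6:88198414-88198663, plus strand: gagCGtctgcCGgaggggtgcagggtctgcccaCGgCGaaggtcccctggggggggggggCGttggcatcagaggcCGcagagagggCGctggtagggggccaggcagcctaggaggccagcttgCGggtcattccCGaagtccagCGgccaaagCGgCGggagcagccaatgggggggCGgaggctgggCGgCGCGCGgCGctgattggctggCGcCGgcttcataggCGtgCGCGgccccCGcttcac
Gata3, chr2:9878601-9878850, minus strand: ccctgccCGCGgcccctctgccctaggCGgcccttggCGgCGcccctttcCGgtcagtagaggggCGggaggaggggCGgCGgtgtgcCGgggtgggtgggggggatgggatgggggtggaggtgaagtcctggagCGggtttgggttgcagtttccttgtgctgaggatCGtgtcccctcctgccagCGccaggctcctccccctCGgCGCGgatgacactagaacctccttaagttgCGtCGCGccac

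All 3 windows are rich in G and C. The distal Gata2 window has 67.2% G and C and 22 CG dinucleotides, the proximal window 74.0% and 24, and the Gata3 window 70.0% and 19. Over 32851 promoter windows of the same length the median was 52.4% G and C and 6 CG dinucleotides. Motifs were searched on both strands of the 300 bases that add 50 after the start. A GATA motif was taken as AGATAA or its variant TGATAA, and likewise as AGATAG or its variant TGATAG. An E-box was taken as CANNTG. The Gata3 window held 1 GATA motif (TGATAG) and 1 E-box (CAGCTG), both after the start. The proximal Gata2 window held 1 E-box (CAGCTG), also after the start, and the distal window held neither. Of all 300-base windows, 29.8% held a GATA motif and 72.3% an E-box, and such a match is a description of letters. The 2 Gata2 probes carry the same accession, and the files do not say which start a signal came from.

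Gata2 was higher in the AICD line in all 3 states, and after replating its signal was 2.22-fold that of the aggregates in each line, which did not pass the test. Levels are given as normalized log2 signal, the log2 of the background-subtracted signal over the 75th percentile of the same array, with the measurement error (1 SD) that Feature Extraction estimated for the spot. In the vector line Gata2 stood at -3.07 ± 0.15 undifferentiated, -2.99 ± 0.15 aggregated and -1.83 ± 0.15 differentiated. In the AICD line it stood at -0.33 ± 0.14, -0.61 ± 0.14 and 0.54 ± 0.14 in the same order. The 3 AICD arrays lay above the 3 vector arrays with no overlap, and the lowest AICD array was 1.23 above the highest vector array. In order of level, the undifferentiated and aggregated vector arrays were 0.09 ± 0.22 apart, which is within the error, and the aggregated and undifferentiated AICD arrays 0.28 ± 0.20 apart. Every other step in the order was at least 0.87, over 4 times its error.

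The difference between the lines, AICD minus vector, was 2.75 ± 0.21 before aggregation, 2.38 ± 0.21 in aggregates and 2.38 ± 0.21 after replating, or 6.71-fold, 5.20-fold and 5.19-fold. The mean was 2.50 with a standard deviation of 0.21 over the states. With normexp background correction the folds were 3.63, 3.57 and 4.08. The second Gata2 probe gave 2.62, 1.95 and 2.10. Of 11480 genes measured on all arrays of the comparison, 0.714% showed an AICD signal at least 2-fold above the vector line in every state, 0.662% at least 2-fold below, and 2.06% had AICD arrays all above the vector arrays. Gata2 and Gata3 are in the first and the last of these groups, and Lmo2 is in none; since the line difference chose the genes, nothing is read from this. By its lowest difference over the states, Gata2 ranked 13 among the 11480 genes.

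**Figure D1:**
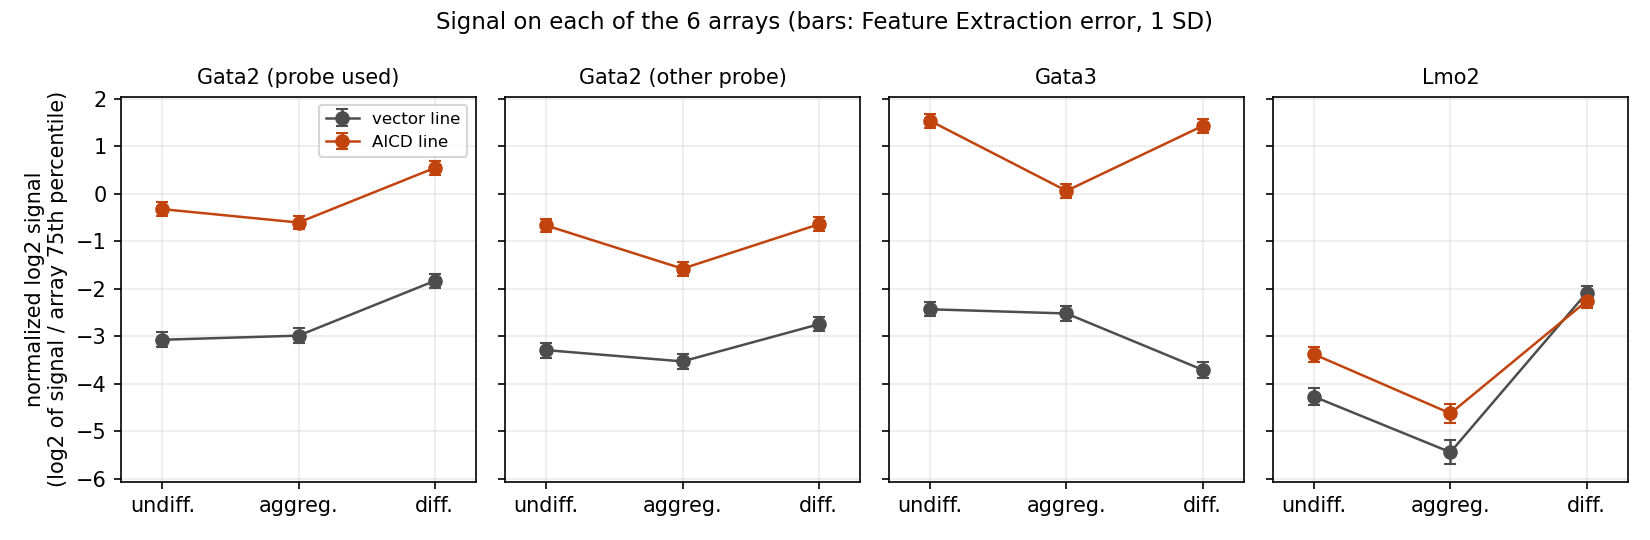
Normalized log2 signal (vertical axis) of each probe in the undifferentiated, aggregated and differentiated state (horizontal axis); points are single arrays, grey for the vector and red for the AICD line, and bars are the Feature Extraction error of 1 SD. Both Gata2 probes and Gata3 lie higher in the AICD line in every state, while the Lmo2 lines meet in the differentiated state at -2.09 and -2.26.

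On aggregation, Gata2 had no change that passed the test: 0.09 in the vector and -0.28 in the AICD line, a mean of -0.10 ± 0.18 (± its standard error in limma, n = 2 arrays per state, adjusted p = 0.672). The 2 arrays of a state were 1 of each line, so this standard error rests on how far a step differed between the lines. On aggregation 14.3% of 13380 genes were called higher and 27.8% lower at adjusted p 0.05, and the median gene had -0.31. With quantile normalization the median gene had -0.12, and 44.4% of the calls were higher against 33.9% in the values above. The second probe gave -0.24 and -0.91 for this step, so the probes differ in the AICD line by more than their error of 0.20 and 0.21.

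On replating, Gata2 had 1.15 ± 0.21 in the vector and 1.15 ± 0.20 in the AICD line, a 2.22-fold difference in each. The mean of 1.15 ± 0.18 did not pass (limma, n = 2 arrays per state, adjusted p = 0.0743). In this comparison 0% of genes were called higher and 0% lower by limma, with 4341 genes at an unadjusted p under 0.05. Gata2 passed with normexp background correction (0.86, adjusted p = 0.0384) and among genes detected on all 6 arrays (1.15, adjusted p = 0.0491). Under the other settings tried with all arrays its adjusted p was 0.0739 to 0.111. The second probe gave 0.78 in the vector and 0.93 in the AICD line.

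Gata3 had the wider gap between the lines, and its course differed between them. In the vector line it stood at -2.43 ± 0.15, -2.52 ± 0.15 and -3.71 ± 0.16 in the undifferentiated, aggregated and differentiated state, and in the AICD line at 1.53 ± 0.14, 0.06 ± 0.14 and 1.42 ± 0.14. Its signal was thus 7.66% to 18.5% of the array's 75th percentile in the vector line and 104% to 289% in the AICD line, again with no overlap. The undifferentiated and aggregated vector arrays were 0.09 ± 0.21 apart and the differentiated and undifferentiated AICD arrays 0.11 ± 0.20, both within the error. The other neighbours in the order were at least 1.19 apart.

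The Gata3 difference between the lines was 3.96 ± 0.21 in the undifferentiated state (15.6-fold), 2.58 ± 0.21 in aggregates (5.97-fold) and 5.13 ± 0.22 after replating (35.02-fold). With normexp correction these folds were 9.60, 4.12 and 17.9. The mean of 3.89 had a standard deviation of 1.28 over the states. In the differentiated state 4.6% of 12280 genes detected on both arrays lay at least 2-fold above the vector line and 3.96% at least 2-fold below, and Gata3 ranked 7 by its difference. It ranked 23 of 12554 genes in the undifferentiated and 68 of 11989 in the aggregated state, where 4.21% of genes in each lay at least 2-fold above; 4.1% and 3.12% lay at least 2-fold below. Gata2 ranked 74, 81 and 98 in the undifferentiated, aggregated and differentiated state.

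**Figure D2:**
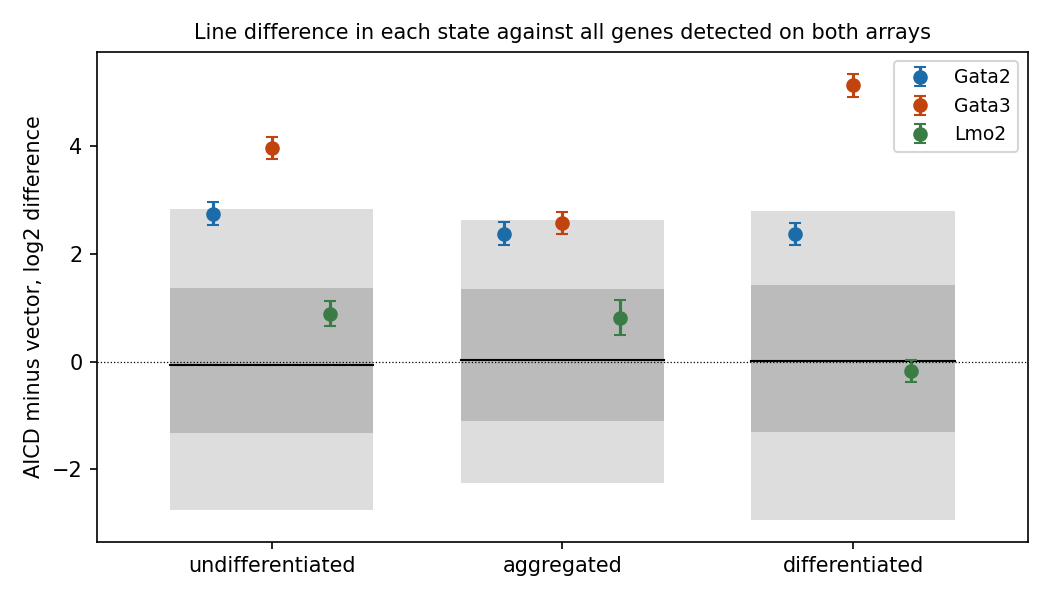
Log2 difference AICD minus vector (vertical axis) of Gata2, Gata3 and Lmo2 in each state (horizontal axis), with the Feature Extraction error of 1 SD; light grey spans the 0.5 to 99.5 percentile and dark grey the 2.5 to 97.5 percentile of all genes detected on both arrays, with the median as a line. Gata3 lies above the light band in the undifferentiated (3.96) and differentiated (5.13) state, Gata2 within its upper part, and Lmo2 within the dark band in every state.

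The steps between states ran differently for Gata3 in the lines. On aggregation the vector line had -0.09 ± 0.21 and the AICD line -1.47 ± 0.20. On replating the vector line had -1.19 ± 0.22 and the AICD line 1.37 ± 0.20, opposite in direction. With 1 array for each line and state this difference between the lines was not tested. Of 11793 genes detected on the 4 arrays, 0.5% moved in opposite directions on replating with at least 2-fold in the AICD line. Over both lines Gata3 had -0.78 ± 0.65 on aggregation and 0.09 ± 0.65 on replating (limma, n = 2 arrays per state, adjusted p = 0.368 and 0.935). These mean values rest on single arrays: the aggregation value was 0.20 without the AICD aggregated array, and the replating value -0.89 without it and -0.84 without the AICD differentiated array. Without the vector aggregated array the values were -1.76 and 1.07, and without the vector differentiated array the replating value was 1.02.

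Lmo2 was dim and close between the lines, and its highest signals were those of the differentiated state. In the vector line it stood at -4.27 ± 0.18, -5.44 ± 0.26 and -2.09 ± 0.15 in the undifferentiated, aggregated and differentiated state. In the AICD line it stood at -3.38 ± 0.16, -4.62 ± 0.20 and -2.26 ± 0.15. The arrays of the lines overlapped. From low to high the order was aggregated vector, aggregated AICD, undifferentiated vector, undifferentiated AICD, differentiated AICD and differentiated vector. The aggregated AICD and undifferentiated vector arrays were 0.35 ± 0.27 apart, and the differentiated arrays 0.17 ± 0.21, within the error.

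Lmo2 differed between the lines by 0.89 ± 0.23 before aggregation, 0.82 ± 0.32 in aggregates and -0.17 ± 0.21 after replating. The mean was 0.51 with a standard deviation of 0.59. It was under 2-fold in every state and ranked 630, 669 and 8540 among the genes detected on both arrays.

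On aggregation Lmo2 fell in both lines, by 1.17 ± 0.31 in the vector and by 1.24 ± 0.25 in the AICD line. Of 11594 genes detected on those 4 arrays, 13.6% were at least 2-fold lower in both lines. The mean of -1.20 ± 0.33 passed narrowly (limma, n = 2 arrays per state, adjusted p = 0.0498), where 27.8% of genes were called lower and the median gene had -0.31. The call was lost with normexp correction (-0.53, adjusted p = 0.0833), with quantile normalization (-1.14, 0.0674), with arrays centred on the median gene (-1.17, 0.0538) and with no filter on dim probes (-1.20, 0.0704). It was also lost without any 1 of the 4 undifferentiated and aggregated arrays, with values of -1.49 to -0.92.

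On replating Lmo2 had 3.35 ± 0.29 in the vector and 2.36 ± 0.25 in the AICD line, or 10.2-fold and 5.14-fold. Both were at least 2-fold higher, as for 5.05% of 11793 genes detected on the 4 arrays. The mean of 2.86 ± 0.33 did not pass (limma, n = 2 arrays per state, adjusted p = 0.0674), in the comparison where 0 genes were called and where 4341 had an unadjusted p under 0.05. It passed with normexp correction (1.41, adjusted p = 0.0362) and among genes detected on all 6 arrays (2.86, adjusted p = 0.0460).

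The members varied together to different degrees. Over the 6 arrays, which share their lines and states, the Pearson correlation was 0.86 between Gata2 and Gata3, 0.54 between Gata2 and Lmo2 and 0.16 between Gata3 and Lmo2, given as a description with no test. Genes with the most similar course were found by the smallest root mean square difference of the centred log2 signals over the 6 arrays, among 11479 other genes detected on all of them. Genes with symbols of clone or predicted style are in this count but were left out of the ranking. For Gata2 these were Slc18b1, a vesicular polyamine carrier (0.37, r = 0.96), Fezf2, a forebrain zinc-finger factor (0.42, r = 0.95), Rasl10a (0.46), Mst1r, a receptor tyrosine kinase (0.51), and Rftn2 (0.52). For Gata3 they were Calr3, a calreticulin of the testis (0.63, r = 0.96), Tbx1, a T-box factor of the pharynx and ear (0.74, r = 0.93), Klhl22 (0.75), Tfpi, an inhibitor of tissue factor (0.75), and Gstp1, a glutathione transferase (0.87). For Lmo2 they were Pak3, a kinase of neurons (0.24, r = 0.99), Stmn2, a microtubule regulator of growing axons (0.30, r = 0.98), Runx1t1 (0.35, r = 0.96), Ank2 (0.39) and Pcyt1b (0.40). Lmo2 was thus nearer to its neighbours than Gata3 was to its own, by a measure that is not scaled for how much a gene varies.

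**Figure D3:**
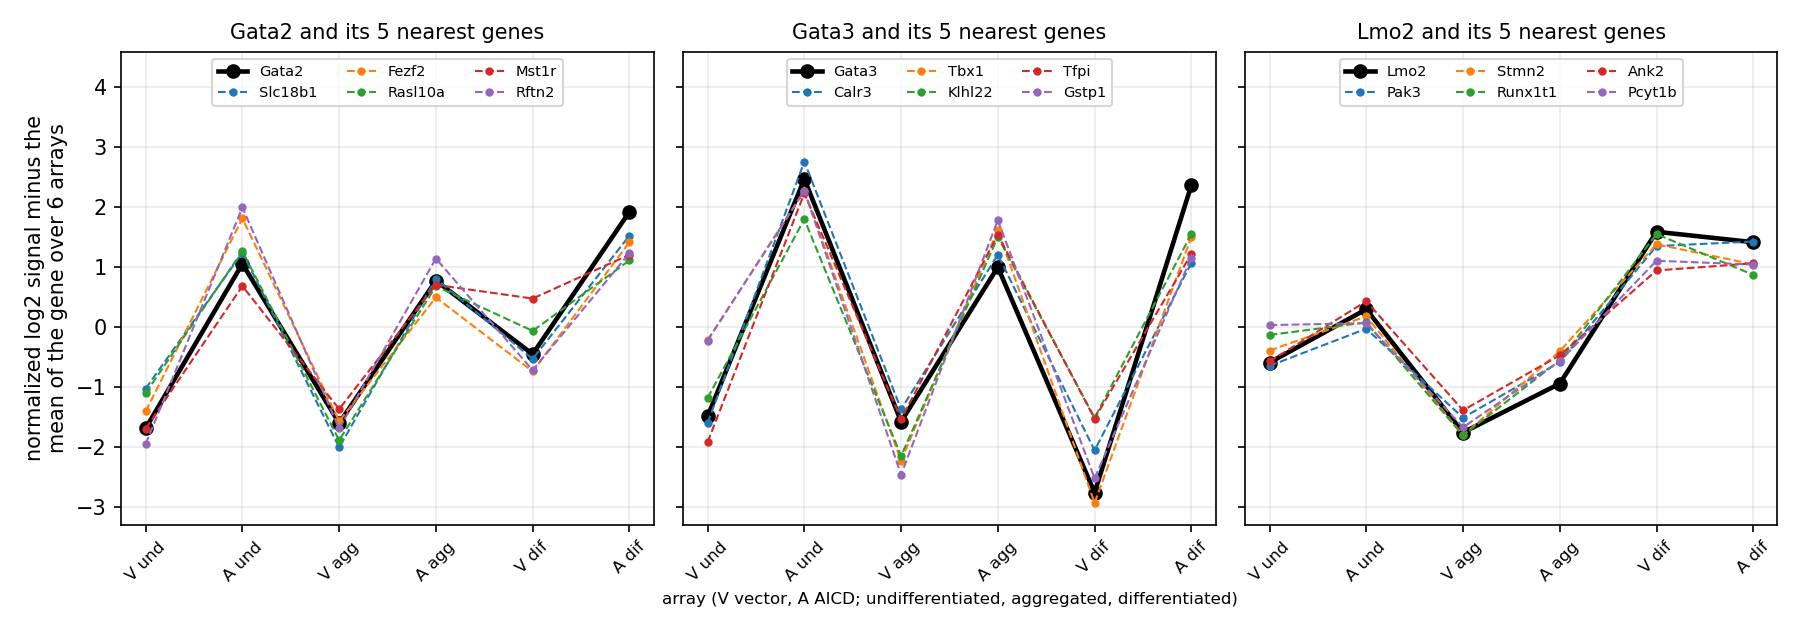
Normalized log2 signal minus the gene's mean over the 6 arrays (vertical axis) for each member (black) and the 5 genes nearest to it (dashed), over the arrays in the order vector then AICD within the undifferentiated, aggregated and differentiated state. Gata2 and Gata3 and their neighbours alternate between the lines, and Lmo2 and its neighbours are lowest in the aggregated vector array and high on both differentiated arrays.

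The other GATA factors had smaller line differences than Gata2 and Gata3. Since Gata2 was chosen by its line difference, nothing is read from this order. Of 5 listed (Gata1, Gata4, Gata5, Gata6 and Trps1), 4 were measured and 0 were called between the lines. By limma 0.209% of 13380 genes were called higher and 0.142% lower. The median difference of these 4 genes was 0.70 (0.29 with normexp correction), against 0.00 for all genes. Gata6, a factor of endoderm and heart, had 0.53, 0.94 and 0.93 in the undifferentiated, aggregated and differentiated state, and Trps1, a GATA-type repressor, had 1.70, 0.03 and 0.09. Gata1, the GATA factor of red blood cells, was well above background on the 2 undifferentiated arrays alone, and Gata5 on none. On aggregation Trps1 rose by 3.06 ± 0.49 (limma, adjusted p = 0.0193) and Gata6 fell by 0.72 ± 0.19 (adjusted p = 0.0445; 0.0515 with quantile normalization).

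Partners of the GATA, Tal1 and Lmo2 complex differed between the lines in both directions. Of 27 listed partners, 25 were measured, 15 of them with a positive line difference, and 0 were called by limma; the median was 0.21. Of those detected on both arrays, 5 of 24 in the undifferentiated, 2 of 24 in the aggregated and 4 of 25 in the differentiated state lay at least 2-fold above the vector line, where 4.21%, 4.21% and 4.6% of all genes did. At least 2-fold below lay 1, 0 and 5 of them, where 4.1%, 3.12% and 3.96% of all genes did. Ldb1, the adaptor that Lmo2 binds, had 0.07, 0.19 and 0.02 in the undifferentiated, aggregated and differentiated state. The E protein genes Tcf3, Tcf4 and Tcf12 had means of 0.15, -0.48 and -0.46, and Lyl1, the close relative of Tal1, had 0.32. The largest mean differences among partners detected on all arrays were those of Ssbp4, an Ldb1-binding protein (1.31, adjusted p = 0.122), Lmo3 (1.15, 0.315), Ldb2 (0.84, 0.135) and Id2, an inhibitor of E proteins (0.83, 0.704). Id2 had 2.70, 0.48 and -0.68 in the 3 states. The other inhibitors Id1 (1.99, 0.10 and -1.43) and Id3 (0.96, -0.21 and -1.90) also changed sign between the undifferentiated and the differentiated state.

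On aggregation 8 of the 25 partners rose and 4 fell (10 and 3 with quantile normalization), where 14.3% of all genes were called higher and 27.8% lower, with a median of 0.26 against -0.31 for all genes. Among those that rose were Id3 (3.0 ± 0.73), Cbfa2t3, a corepressor of Tal1 complexes (2.83 ± 0.42), Id4 (1.88 ± 0.41) and Ssbp2 (1.78 ± 0.37). The 4 that fell were Ldb2 (-2.86 ± 0.16), Fli1 (-2.61 ± 0.67), Runx1 (-2.12 ± 0.18) and Lyl1 (-1.37 ± 0.28), of which Fli1, Runx1 and Lyl1 are factors of blood and endothelium. The adjusted p of these 8 lay between 0.00750 for Ldb2 and 0.0438 for Fli1, and Fli1 had 0.0539 with quantile normalization. Ldb1 rose by 1.12 ± 0.15 (adjusted p = 0.0155).

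Blood and endothelial genes had a median line difference near 0. Of 25 listed, 14 were measured, 0 were called between the lines, and that median was -0.05 (0.04 with normexp correction). Their summed signal, in units of the array's 75th percentile, was 0.990 to 2.74 on the vector arrays and 1.49 to 2.25 on the AICD arrays. The list was split in detection. Hbb-y, Hba-a1, Klf1 and Epor of red cells, Csf1r of macrophages, and Vwf, Kdr, Hhex and Sox17 passed the background threshold on each of the 6 arrays. Of the listed genes not well above background on any array, Ptprc, Spi1, Nfe2 and Hba-x are of blood, and Tie1, Cdh5, Pecam1 and Sox18 of endothelium. Hhex had the largest mean difference among those detected on all arrays (0.63, adjusted p = 0.630). Kdr, the VEGF receptor of blood and endothelial precursors, had 1.29, -1.31 and -0.23 in the undifferentiated, aggregated and differentiated state.

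Among genes of V2 and neighbouring spinal cord domains, the line differences leaned to the AICD side in the aggregated and differentiated state. Of 27 listed, 21 were measured, 16 had a positive mean difference, and the median was 0.88 (0.33 with normexp correction) against 0.00 for all genes. The medians were 0.09, 0.65 and 1.17 in the undifferentiated, aggregated and differentiated state. Before aggregation 12 of the 21 differences were positive. Lhx3, Irx3, Isl1 and Mnx1 were well above background on a single vector array each, so they passed the filter only with AICD arrays. Dbx2 passed only with vector arrays. Dbx1, a factor of interneuron progenitors, was called higher, with 5.84 in aggregates and 4.81 after replating (limma, adjusted p = 0.0415, and 0.259 with normexp correction), and 0 were called lower. Before aggregation Dbx1 stood at -3.45 in the AICD and -7.67 in the vector line. That vector array was not well above background, and the test used it. The V2a gene Vsx1 was not well above background on any array. No probe matched Foxn4 or Sox14 by accession, so the V2 branch itself is read here from few genes. The summed signal of the list was 6.25, 21.7 and 24.0 in the vector and 13.1, 45.5 and 48.7 in the AICD line, in the order of the states. Few bright genes weigh most in these sums. In aggregates Dbx1 stood at 4.56 in the AICD and -1.27 in the vector line. Nkx6-2 stood at 3.21 and 1.91 before aggregation. After replating Dbx1 stood at 3.15 and -1.65, Nkx6-2 at 3.06 and -2.20, and Nkx6-1 at 2.35 and -2.85. The sums are therefore not read as a trait of the whole list. The part of the list in the Gata2 and Gata3 differences was not tested.

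The genes of the V2 list with the largest mean line differences on all 6 arrays, with values in the order undifferentiated, aggregated, differentiated, were Nkx6-2 (1.30, 1.68 and 5.25), Bhlhe22 (1.54, 3.55 and 2.60), Nkx6-1 (-0.26, 1.36 and 5.19) and Pax6 (3.24, 0.16 and 0.87). None of these 4 homeobox and helix-loop-helix genes passed (adjusted p of 0.145 to 0.551). The differences of Nkx6-1 and Nkx6-2, which mark ventral progenitors, were largest in the differentiated state, where Gata3 also had its largest. On aggregation 11 of the 21 genes rose and 3 fell, where 14.3% of all genes were called higher and 27.8% lower. The counts were 11 and 1 with quantile normalization and 9 and 2 with normexp correction. Of those that rose, Dll4, Irx3 and Isl1 passed the background threshold in no undifferentiated sample. They entered the test through later arrays alone. Of those that fell, Dbx2 and En1 passed that threshold in neither aggregated sample. The steps of these genes rest on dim signals, so the counts are given as a description.

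Genes of GABA neurons fell to both sides. Of 16 listed, 14 were measured, with a median line difference of -0.05, and 0 were called (1 higher and 1 lower with normexp correction). The next 3 genes, and Dlx1, Dlx2 and Slc6a5 named after them, were chosen after their values were seen. Tal2, the Tal1 relative that acts with Gata2 in midbrain GABA neurons, had -1.46 before aggregation and 3.53 after replating, and in aggregates the AICD line exceeded the vector line, at least 10.7-fold higher. Helt, a midbrain GABA selector, had both undifferentiated arrays not well above background, stood at least 8.87-fold higher in AICD aggregates and had 3.97 after replating. Gad1, which makes GABA, stood at least 4.30-fold lower in AICD aggregates and had -2.88 after replating. A bound compares the bright array with the lowest signal that was well above background on the dim array. Where the gene's own signal on the dim array was higher than that, its own signal was used.

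Slc32a1, the vesicular transporter of GABA and glycine, had -5.41, -3.72 and -3.31 in the undifferentiated, aggregated and differentiated state (limma, adjusted p = 0.0798). In the differentiated state the homeobox genes Dlx1 (3.65) and Dlx2 (3.43) also had a higher signal in the AICD line, and Slc6a5, a glycine carrier, a lower one (-3.91).

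**Figure D4:**
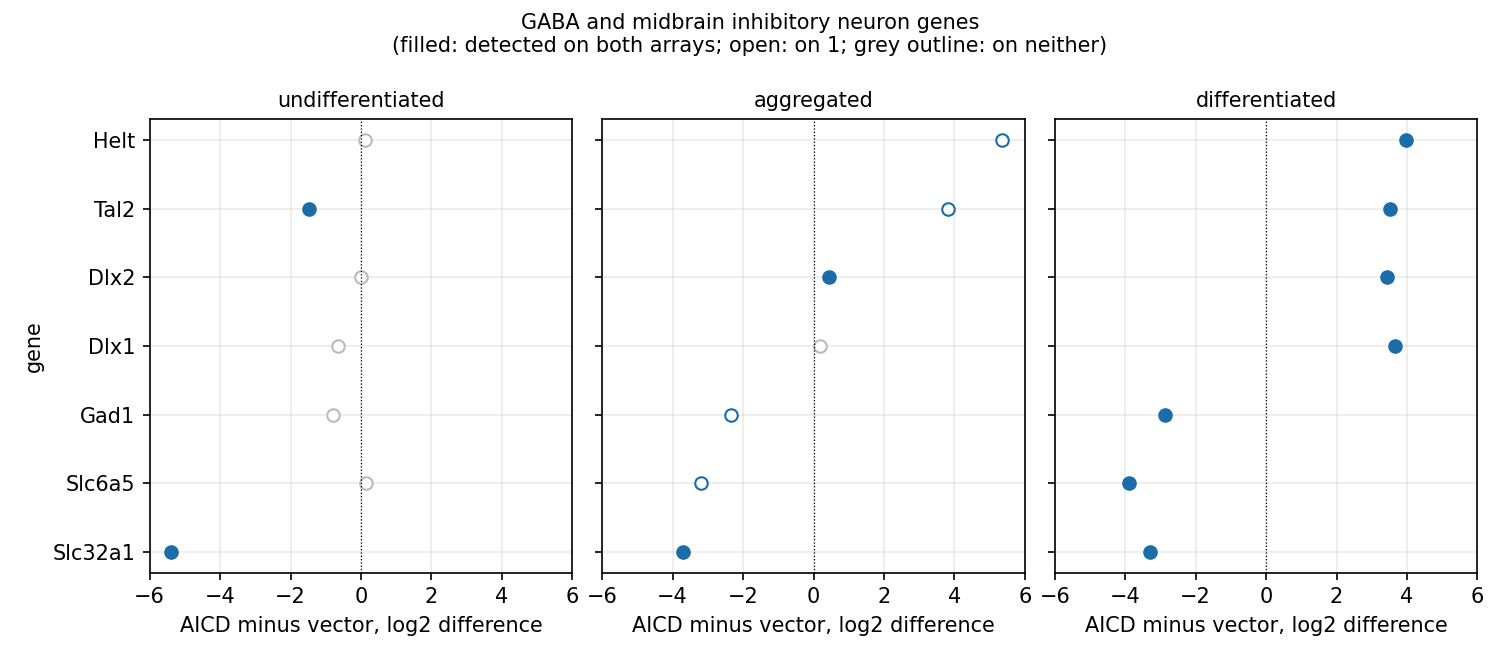
Log2 difference AICD minus vector (horizontal axes) for the 7 genes of the GABA list named in the text, of 14 measured (vertical axis, ordered by their mean difference) in the undifferentiated, aggregated and differentiated state; filled points are detected on both arrays, open points on 1 and grey outlines on neither. In the differentiated state Helt (3.97) and Tal2 (3.53) lie to the right, and Gad1 (-2.88), Slc6a5 (-3.91) and Slc32a1 (-3.31) to the left.

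Trophoblast and surface ectoderm genes, where Gata2 and Gata3 also act, had a median line difference of 0.59 (0.32 with normexp correction) over 15 measured of 23 listed. Of these 15, 8 had a positive mean difference. The medians were -0.11, 0.17 and 0.69 in the undifferentiated, aggregated and differentiated state. Esx1, a homeobox gene of the placenta, was called higher, with 5.07 before aggregation, at least 54.2-fold in aggregates and 4.90 after replating (limma, adjusted p = 0.0268). Tead4, Dlx5 and Eomes were named after their values were seen, for a brighter signal in the AICD line, and do not stand for the list. Tead4, a factor of trophoblast, had 2.84 before aggregation and stood at least 4.12-fold higher in aggregates and at least 7.21-fold after replating. Dlx5, of surface ectoderm, was detected above background on the 3 AICD arrays alone and stood at least 6.26-fold higher over the states. It passed the filter only through the AICD arrays, so no test is given for it. Eomes, of trophoblast and mesoderm, had -0.49 before aggregation and stood at least 13.7-fold higher in aggregates and at least 2.02-fold after replating. In the vector line, Tead4 and Eomes were well above background on the undifferentiated array alone. They passed the filter only with AICD arrays, so no test is given for them either. Elf5, Hand1, Gcm1, Krt7, Trp63 and Dlx3 were not well above background on any array. The surface keratin Krt8 had -0.54, -0.96 and -0.43, Tfap2c 0.33, 0.17 and 1.85, and Ets2 -0.75, -0.56 and -0.68. The summed signal of this list was 2.21 to 5.75 in the vector and 3.41 to 9.28 in the AICD line. A sum follows its brightest genes. Esx1 stood at 2.09, -0.12 and 0.20 on the undifferentiated, aggregated and differentiated AICD arrays. On the vector arrays it stood at -2.98, -5.88 (not well above background) and -4.69. The sums are therefore not read as a trait of the whole list, and the part of the list in the Gata2 and Gata3 differences was not tested. In the serotonin neuron list 7 of 9 genes were measured and 0 were called, with a median of 0.25. Its largest member on all arrays was Ddc, which makes dopamine and serotonin (1.61, 1.50 and 2.93; adjusted p = 0.152), and Fev, which with Gata2 and Gata3 marks serotonin neurons, had 0.10, 0.27 and 0.36.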

How the data were processed

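Scanner output of 6 Agilent 1-colour (Cy3) arrays was used. Per the file headers, the authors read the images with Agilent Feature Extraction 10.1.1.1; the deposited processed signal is an intensity that this software gives after background subtraction. Control and outlier spots were left out, spots of a probe averaged, and log2 signals set relative to the array's 75th percentile (529 to 878). Symbols came from RefSeq accessions (GRCm38.p6) for 24844 of 41174 probes; 27 probes lacking a value on an array were dropped. Probes well above background on at least 2 arrays were kept, and the probe with the highest mean stood for a gene, leaving 13380 genes.

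limma 3.58.1 (R 4.3.3) was fitted with terms for state and line (2 residual degrees of freedom), with Benjamini-Hochberg adjustment over all genes at 0.05, two-sided. Nothing says that arrays came from separate cultures, so this spread may be technical. Members and lists were chosen with earlier results of these data known. All members were named in every comparison. In each list, called genes and those with the largest line difference on all 6 arrays were named. Others (Gata4, Ldb1, Lyl1, the E proteins, Id1, Kdr and detected blood genes, Lhx3, Mnx1, Tead4, Dlx5, Eomes, Tal2, Helt, Gad1, Slc6a5, Dlx1 and Dlx2) were chosen after their values were seen. Like genes had the smallest root mean square difference. Alternatives were normexp background correction (offset 50, on median signals, the columns used here), quantile normalization, other filters, the mean of probes, arrays left out and fits within a slide. The authors' deposited value table was not used. Some genes that the naming rule picks are not reported here.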

Additional observations from a re-analysis of the deposited data

Results flagged for a closer look

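Gata3 moved in opposite directions in the lines on replating: -1.19 with the vector and 1.37 with AICD, as log2 differences. Each change was larger than its Feature Extraction error (0.22 and 0.20). The direction in each line was the same with normexp correction (-0.81 and 1.31) and with quantile normalization (-1.34 and 1.44). The difference between the lines was not tested, since each value compares 2 single arrays.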

How the results depend on the processing

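Of 5633 genes called on aggregation, between 0 and 4187 were called with 1 array left out. On replating, 0 genes were called, against 1391 with normexp correction and 733 among genes detected on all 6 arrays, and 0 to 0 with 1 array left out. Between the lines 47 genes were called, against 78 with normexp correction, 0 with no filter, 97 within the slide of the aggregated and differentiated arrays, and 0 to 97 with 1 array left out (97 without either undifferentiated array and 0 without any other).

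The aggregation value of Lmo2 lost its call with normexp correction (-0.53), quantile normalization (-1.14), no filter (-1.20), the mean of probes (-1.20) and, chosen after seeing the data, arrays centred on the median gene (-1.17); it was -1.49 to -0.92 with 1 array left out. The replating values passed with normexp correction (Gata2 0.86, Lmo2 1.41) and on all 6 arrays (Gata2 1.15, Lmo2 2.86), and with 1 array left out were 1.06 to 1.24 for Gata2 and 2.34 to 3.37 for Lmo2. With 1 array left out, the aggregation value was -0.28 to 0.088 for Gata2 and -1.76 to 0.20 for Gata3, and the Gata3 replating value -0.89 to 1.07, so these turned direction. The lone array left in a state was assumed to vary like the others.

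The mean Gata2 line difference was 1.91 with normexp correction, 2.22 on the other probe and 2.38 to 2.56 with 1 array left out; Gata3 had 3.27 to 4.55 and Lmo2 0.32 to 0.85. Within the undifferentiated, aggregated and differentiated state, normexp correction gave 1.86, 1.84 and 2.03 for Gata2 and 3.26, 2.04 and 4.16 for Gata3, and for Lmo2 0.27 and 0.46 in the first 2 states. The other Gata2 probe, chosen after seeing the data, gave 1.95 aggregated and 2.10 differentiated. The causes were not tested. The 6 arrays, with 1 for each line and state, limit the precision, and Lmo2 was nearest to background.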
